A study of Mus musculus with 4 samples.

Results

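The genes described are the proteasome subunits and a large part of the enzymes that attach ubiquitin to proteins or take it off, as measured in mouse spinal cord. The rule goes by gene symbol: symbols that begin with Psm and a subunit letter and number, with Ube2, or with Usp and a number, without Psmb8, Psmb9, Psmb10, Psme1, Psme2 and Usp18. The rule found 106 of the 10225 genes on the arrays, namely 43 proteasome subunits, 24 ubiquitin-conjugating enzymes and 39 ubiquitin-specific proteases. The rule uses no measured value. The prefixes also admitted some genes of other function: Psmc3ip and Psme3ip1 encode proteins that interact with a subunit, and Usp6nl encodes a GTPase-activating protein.

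All mice were SJL/J, female and adult, either with AT-EAE or as controls. In AT-EAE, a model of multiple sclerosis, recipients of T cells that recognise myelin develop inflammation of the cord; what the control mice received is not given in the sources used here. Total RNA was extracted from the pooled cords of 2 mice at a time, which gave 4 AT-EAE and 4 control extracts. Hybridisation was to 2-colour cDNA arrays, 4 in all, each with a pair of extracts from within 1 group. Array 1 of a group held extracts 1 and 2, and array 2 held extracts 3 and 4.

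Ubiquitin is activated by an E1 enzyme, passed to a conjugating enzyme (E2) and joined to a substrate with the help of a ligase (E3). The proteasome then unfolds and degrades the tagged protein. Its 20S core is a barrel with alpha rings at the ends, which gate the entry, and beta rings inside, which hold the protease sites. The 19S particle caps the core, with a ring of ATPases (Psmc) that unfolds substrates and non-ATPase subunits (Psmd) that bind and remove ubiquitin. Ubiquitin-specific proteases cut ubiquitin from substrates. In inflamed tissue interferon-gamma induces Psmb8, Psmb9 and Psmb10, which take the place of the constitutive catalytic subunits.

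The deposited value of a spot was read as the log2 ratio of the 2 extracts on its array, with base 2 assumed. Which extract stands on top of the ratio is not given in the sources used here. A sign therefore shows only on which side of other genes of that array a gene lies, and 1 array is a single measurement of 1 pair of extracts. The values hold no level in AT-EAE against control cord. What they measure is how far extracts of 1 group differed, together with dye and technical noise. Unless a value is said to be otherwise, ratios of genes below are means over the spots of the gene, with the array's median over genes taken as zero. The standard deviation over all genes, from the median absolute deviation, was 0.17 on AT-EAE array 1, 0.33 on AT-EAE array 2, 0.18 on control array 1 and 0.23 on control array 2. Between spots of the same member it was 0.20, 0.35, 0.20 and 0.23 in the same order, so spots of the same gene differed by about as much as genes did. Whole cord was analysed, so fewer cells of a type and less RNA per cell cannot be told apart. Values were present for 4 to 6 of the 6 neuronal markers on the arrays, for 3 or 4 of the 4 markers of oligodendrocytes and myelin, and for 3 or 4 of the 4 astrocyte markers. Of 5 markers of microglia and macrophages 3 to 5 had values, and the only T cell marker, Cd4, had none. From 54.9% to 86.2% of all genes had a value on an array, so these counts cannot serve as a check of the tissue.

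More proteasome genes than genes overall had a value on each array, and every group had fewer values on AT-EAE array 2 than on the others. Proteasome genes had values for 95.3% and 74.4% on AT-EAE arrays 1 and 2, against 100% and 97.7% on control arrays 1 and 2. Of the 15 genes of the 20S core, 100% had a value on AT-EAE array 1, 93.3% on AT-EAE array 2 and 100% on both control arrays; the gene without one was Psmb6, which encodes a catalytic beta subunit. All 20 genes grouped by symbol (Psmc or Psmd) under the 19S particle had values on AT-EAE array 1 and on both control arrays, and 75% on AT-EAE array 2. The ubiquitin-conjugating enzymes had values for 91.7% and 79.2% of genes on AT-EAE arrays 1 and 2, and for 91.7% on both control arrays. The ubiquitin-specific proteases had values for 76.9% and 56.4% in AT-EAE, against 84.6% and 82.1% on the control arrays. Over all genes the shares were 72.4% and 54.9% on the AT-EAE arrays, and 86.2% and 80.1% on the control arrays. Counted by spots, ubiquitin-specific proteases had values for 35.1% on AT-EAE array 2, against 42.1% over all genes. What set a missing value is not given in the sources used here.

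**Figure D1:**
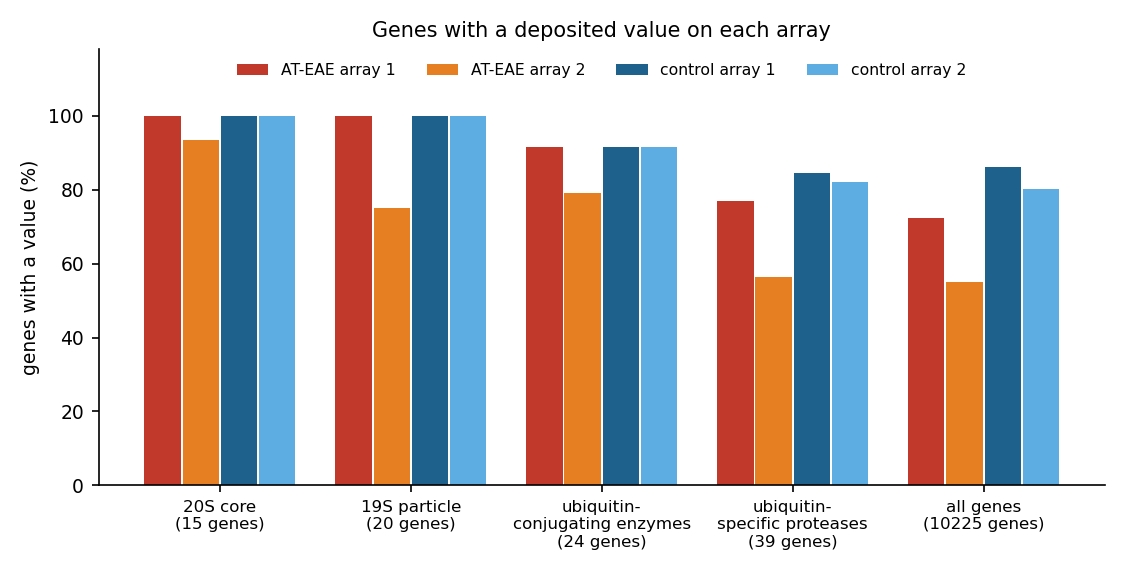
Share of genes with a deposited value (y axis, %) on each array, for 5 gene groups (x axis), with AT-EAE arrays in red and orange and control arrays in blues. The 20S core stays at 93.3% or above on every array, while ubiquitin-specific proteases are at 56.4% on AT-EAE array 2, close to the 54.9% of all genes.

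Values on all 4 arrays were present for 73 of the 106 members (68.9%), against 53.1% of all genes. These were 32 proteasome genes, 19 conjugating enzymes and 22 ubiquitin-specific proteases. Of the 95 members with values on both control arrays, 3 had none on either AT-EAE array, a share of 3.16%, against 11.6% over all genes. They were Psmg2, an assembly chaperone of the core, and the deubiquitinases Usp1, which acts in DNA repair, and Usp42. No member had values on both AT-EAE arrays and on neither control array, against 0.235% over all genes. Another 7 members had no value anywhere: Ube2f, a NEDD8-conjugating enzyme, Ube2t, Usp29, Usp30, Usp43, Usp45 and Usp6nl.

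On AT-EAE array 2 most proteasome genes lay above the array median, and the 20S core most evenly so. The proteasome median was 0.29 on that array, with 26 of 32 genes above the array median, against 50.0% of all genes, by construction. With only genes that had at least 2 measured spots there, and the zero set over such genes, it was 0.091. On AT-EAE array 1 it was 0.09, with 29 of 41 genes above, on control array 1 0.00, with 24 of 43, and on control array 2 0.05, with 27 of 42. In the 20S core, 13 of 14 genes were above on AT-EAE array 2, at a median of 0.38, and 14 of 15 on AT-EAE array 1, at 0.12. The core stood at 0.00 on control array 1, with 8 of 15 genes above, and at 0.11 on control array 2, with 14 of 15. No test was run on these medians, since genes of 1 array are not replicates. Markers of cell types differed between arrays too. The astrocyte markers with values, 3 of 4 on AT-EAE array 2 and 4 on each other array, had medians of -0.02 and 0.28 on AT-EAE arrays 1 and 2, and of 0.13 and 0.00 on control arrays 1 and 2. Microglia and macrophage markers were at -0.28 and -0.15 in AT-EAE, and at 0.06 and 0.01 in control. Neuronal markers were at 0.01 and -0.12 in AT-EAE, and at 0.07 and -0.13 in control, and markers of oligodendrocytes and myelin at -0.22 and 0.08 in AT-EAE, and at 0.11 and -0.10 in control. Between 3 and 6 genes of each of these lists had a value on an array. Rbfox3 and Olig2 had none in AT-EAE, and the T cell marker Cd4 had none on any array. The part of these cell types in the proteasome medians was not tested.

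**Figure D2:**
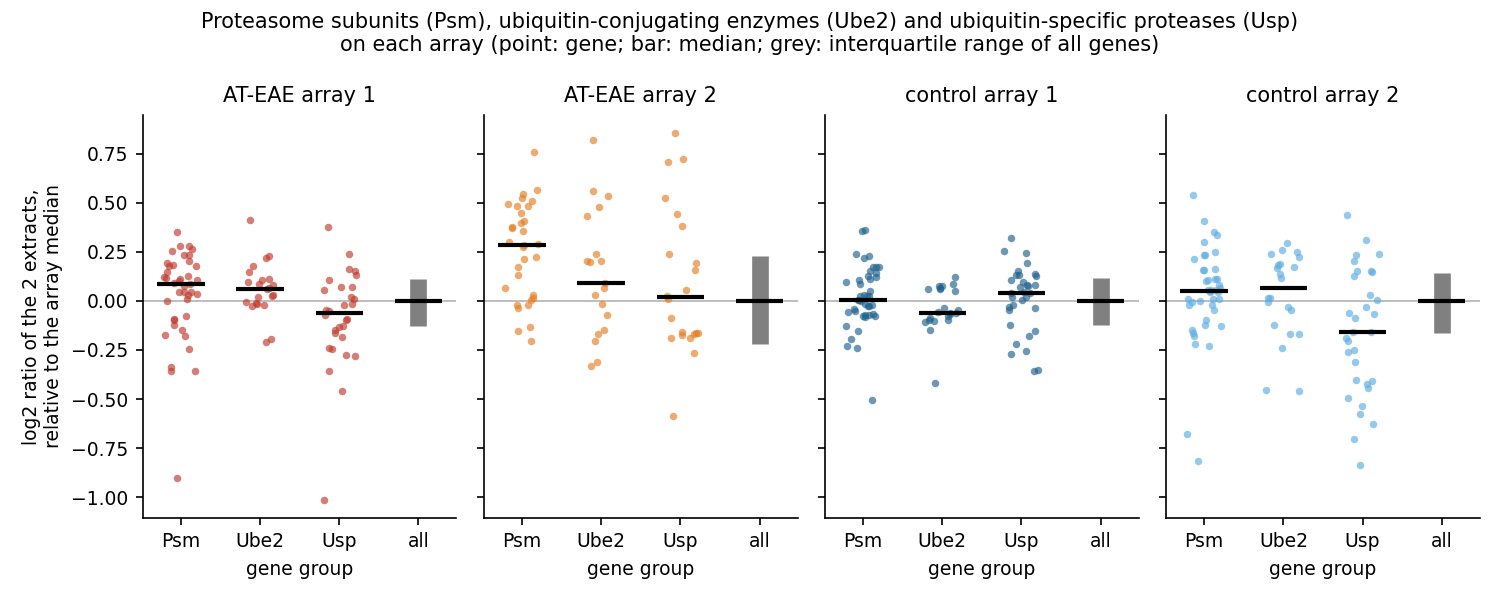
Log2 ratio of the 2 extracts relative to the array median (y axis) for each member (points) by gene group (x axis), 1 panel per array, with the group median as a bar and the interquartile range of all genes in grey. Proteasome genes sit highest on AT-EAE array 2, at a median of 0.29, and ubiquitin-specific proteases sit lowest on control array 2, at -0.16.

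Among the alpha subunits of the core, Psma6 was at 0.05 and 0.52 on AT-EAE arrays 1 and 2, and at 0.03 and 0.16 on control arrays 1 and 2. Psma2 was at 0.25 and 0.49 in AT-EAE, and at -0.06 and 0.41 in control. Psma1, with 4 spots, was at 0.12 and -0.02 in AT-EAE and at 0.09 and 0.06 in control. The high values of Psma6 and Psma2 thus belonged to AT-EAE array 2, with Psma2 high on control array 2 as well, and Psma1 stayed near the median everywhere. The other alpha genes, Psma3, Psma4, Psma5 and Psma7, lay between 0.30 and 0.41 on AT-EAE array 2 and between 0.00 and 0.11 on AT-EAE array 1.

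Of the beta subunits, Psmb1, Psmb2, Psmb7 and Psmb11 were highest on AT-EAE array 2. Psmb2 was at 0.15 and 0.51 on AT-EAE arrays 1 and 2, and at 0.24 and 0.16 on control arrays 1 and 2. Psmb1 was at 0.18 and 0.45 in AT-EAE, and at -0.05 and 0.16 in control. Groups overlapped for Psmb2 and not for Psmb1. Among the 73 members with values on all arrays, 15 were higher on both AT-EAE arrays than on both control arrays, against 14.9% of all genes, and 6 were lower, against 15.2%. Such an order sets ratios within groups side by side and says nothing of whether a gene had more RNA in AT-EAE cord than in control cord. The means can also rest on different spots on different arrays. For Usp21, 1 of the 6, the spot at -0.65 and -0.59 in AT-EAE had no value in control. Ube2j2, 1 of the 15, overlapped between groups at its only spot with a value on AT-EAE array 2. Of the catalytic subunits, Psmb5, which carries the chymotrypsin-like site, was at 0.10 and 0.27 in AT-EAE and at -0.08 and 0.54 in control, so that control array 2 was its highest. Psmb7, which carries the trypsin-like site, was at 0.28 and 0.38 in AT-EAE and at 0.03 and 0.01 in control, and was 1 of those 15. Psmb6, with the caspase-like site, was at 0.23 on AT-EAE array 1 and at -0.07 and 0.23 on the control arrays.

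Psmb3 and Psmb4 had another order. Psmb3 had its highest ratio on AT-EAE array 1, at 0.35, against 0.17 on AT-EAE array 2 and 0.00 and 0.11 on the control arrays. Psmb4 was at -0.15 and 0.06 in AT-EAE and at -0.51 and 0.10 in control. The low value on control array 1 came from 1 of its 2 spots, which was at -0.93 while the other was at -0.08. The platform's table also assigns 2 spots to Psmb11, the beta subunit of the thymus proteasome, at 0.20 and 0.55 in AT-EAE and 0.05 and 0.08 in control. Only 1 of these spots had values in AT-EAE, and that spot was at 0.17 and 0.18 in control. Without Psmb11 the core median was 0.37 on AT-EAE array 2, with 12 of 13 genes above.

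**Figure D3:**
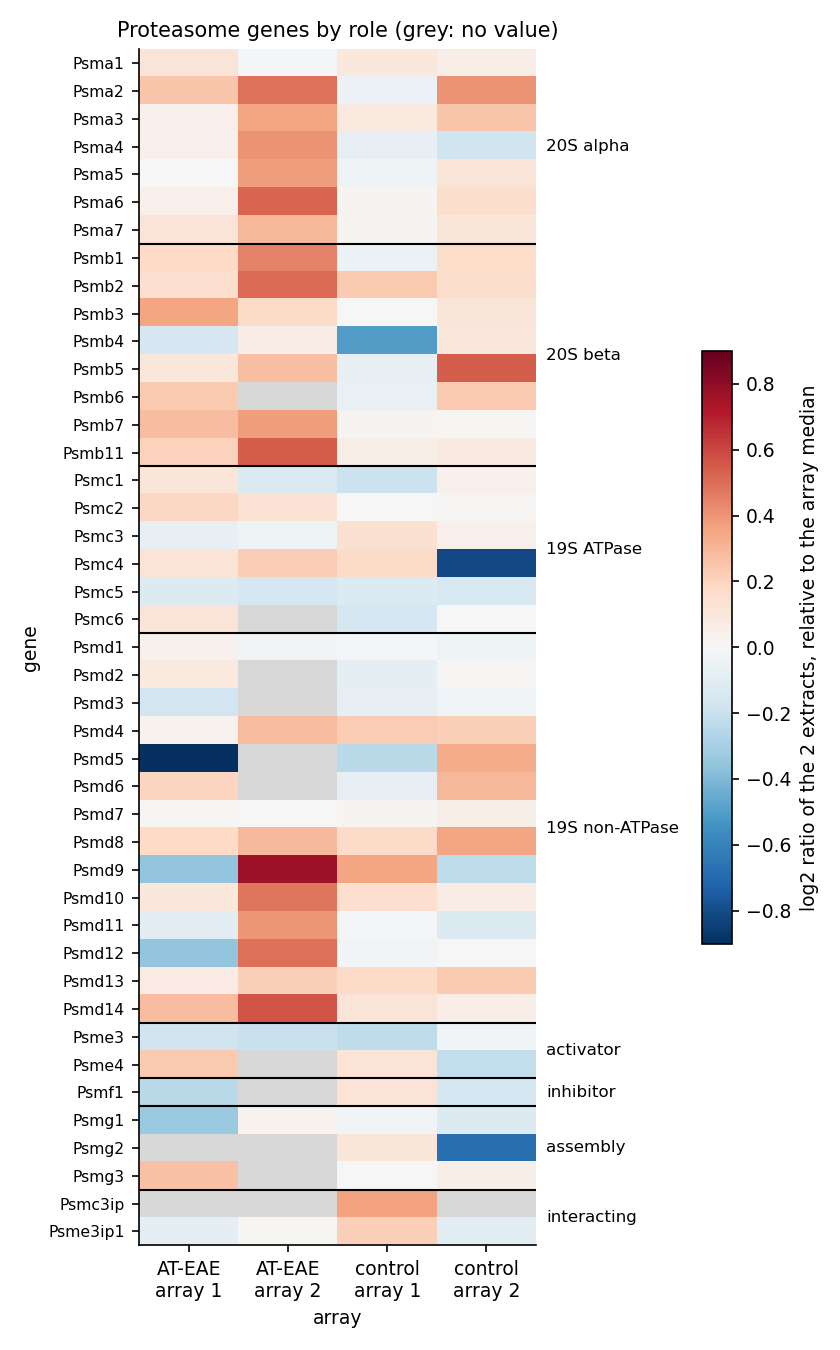
Log2 ratio relative to the array median (colour, red above and blue below) of the 43 proteasome genes (rows, grouped by role) on the 4 arrays (columns), with grey for no value. On AT-EAE array 2 the 20S genes run from 0.06 (Psmb4) to 0.55 (Psmb11), apart from Psma1 at -0.02 and Psmb6 without a value. The ATPase genes with a value there run from -0.15 to 0.22.

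The ATPases of the 19S base lay near the median on AT-EAE array 2: their median was -0.04, with 2 of 5 genes above. They were at 0.11 on AT-EAE array 1, -0.06 on control array 1 and 0.00 on control array 2. Psmc5 was at -0.12 and -0.15 on AT-EAE arrays 1 and 2, and at -0.13 and -0.15 on control arrays 1 and 2. It was thus slightly below the median on every array, yet 1 of its 5 spots was at -0.74 on AT-EAE array 1, -0.14 on AT-EAE array 2, -0.52 on control array 1 and -0.46 on control array 2. On AT-EAE array 2 another of its spots was the lowest, at -0.59. Psmc1 was lowest of the ATPases on control array 1, at -0.19, and Psmc3 highest on control array 2, at 0.05. Psmc4 was at 0.13 and 0.22 in AT-EAE and at 0.17 and -0.82 in control, from a single spot, so that control array 2 alone stood apart.

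All Psmd genes were grouped by symbol as non-ATPase subunits, although some, among them Psmd5 and Psmd9, are assembly chaperones. Of these genes, 9 of 10 with a value lay above the median on AT-EAE array 2, at a median of 0.34. On AT-EAE array 1, 9 of 14 did so, at 0.03. Psmd14, the deubiquitinase of the lid, was at 0.28 and 0.57 on AT-EAE arrays 1 and 2, and at 0.11 and 0.06 on control arrays 1 and 2. Only 1 of its 2 spots had a value on AT-EAE array 2, and that spot was at 0.34 on AT-EAE array 1. Psmd9, an assembly chaperone of the base, was at -0.36 and 0.76 in AT-EAE and at 0.35 and -0.23 in control, from 1 spot. In both groups 1 array lay above the median and the other below it. Psmd12, a lid subunit with 1 spot, was at -0.36 and 0.50 in AT-EAE and at -0.03 and 0.00 in control. The scaffold subunit Psmd1, with 4 spots, had means between -0.05 and 0.04, and Psmd7, with 3 spots, between 0.00 and 0.05. Their single spots disagreed in sign on AT-EAE array 2, from -0.39 to 0.39 for Psmd1 and from -0.22 to 0.35 for Psmd7.

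Psmd5, another assembly chaperone of the base, had the lowest proteasome value of AT-EAE array 1, at -0.90, no value on AT-EAE array 2, and -0.24 and 0.34 on the control arrays. Its 2 spots differed on control array 1, the only array where both had a value. One was at -0.90 on AT-EAE array 1 and -0.50 on control array 1, with no value on the other arrays. The other was at 0.02 on control array 1 and 0.34 on control array 2.

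Outside the core and the 19S particle the ratios were small or rested on few spots. The activator Psme3 (PA28 gamma) was at -0.18 and -0.20 on AT-EAE arrays 1 and 2, and at -0.23 and -0.02 on control arrays 1 and 2, below the median on each. The other activator, Psme4 (PA200), was at 0.23 on AT-EAE array 1 and at 0.12 and -0.22 in control. The inhibitor Psmf1 was at -0.24 on AT-EAE array 1 and at 0.13 and -0.16 in control. Of the assembly chaperones, Psmg1 was at -0.34 and 0.03 in AT-EAE and -0.03 and -0.13 in control, and Psmg2 was at 0.11 and -0.68 on the control arrays, each value from a different spot. The genes left out by the rule that had spots on the arrays were Psmb8 at 0.09 and 0.39 in AT-EAE and 0.45 and -0.27 in control, Psmb9 at 0.04 and 0.10 against 0.18 and -0.35, and Psme1 at -0.08 and 0.27 against 0.24 and 0.07. Usp18 had a spot but no value.

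On every array the labels list the lower-numbered extract as channel 1, so for a gene on the same side of all 4 arrays the channel and the extract order cannot be told apart. Of the 32 proteasome genes with values on all arrays, 14 lay above the array median on every one, against 11.9% of all genes. They were Psma3, Psma6, Psma7, Psmb2, Psmb3, Psmb7, Psmb11, Psmc2, Psmd4, Psmd7, Psmd8, Psmd10, Psmd13 and Psmd14. Some were barely above on an array: Psmc2 at 0.002 and 0.008 on control arrays 1 and 2, Psmb3 at 0.004 on control array 1, and Psmd7 at 0.004 on AT-EAE array 2. Such values are far smaller than the standard deviation between spots of the same member. Psmc5 and Psme3 lay below on every array, against 11.1% of all genes. Of the conjugating enzymes 1 of 19 lay above throughout (Ube2d3), and of the ubiquitin-specific proteases 2 of 22 lay above (Usp2 and Usp5) and 1 below (Usp48). With genes that had at least 2 spots on each array the proteasome count was 5 of 19, against 12.5% of all genes, and without AT-EAE array 2 it was 16 of 41 on the other 3 arrays, against 17.2%.

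Several measures moved with these ratios. The letters that open the accession of a spot's cDNA clone give a class of clone, and spots with AA or W lay lower than the others on every array over all genes, at -0.10 against 0.07 on AT-EAE array 2. Such spots were 29.9% of proteasome spots, 24.1% of spots of conjugating enzymes and 30.9% of spots of ubiquitin-specific proteases, against 39.7% of all spots. Within proteasome genes on AT-EAE array 2, the 16 AA or W spots had a median of 0.05 and the 45 others one of 0.30. With each class centred on its own median, the proteasome median on that array was 0.27, and 12 of 32 genes lay above on all arrays, against 11.1% of all genes. The number of spots moved with the shift too: the 12 proteasome genes with a single measured spot on AT-EAE array 2 had a median of 0.49, and the 20 with more had 0.15. Over all genes the same medians were -0.03 and 0.06. The part of the number of spots in the shift was not tested.

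**Figure D4:**
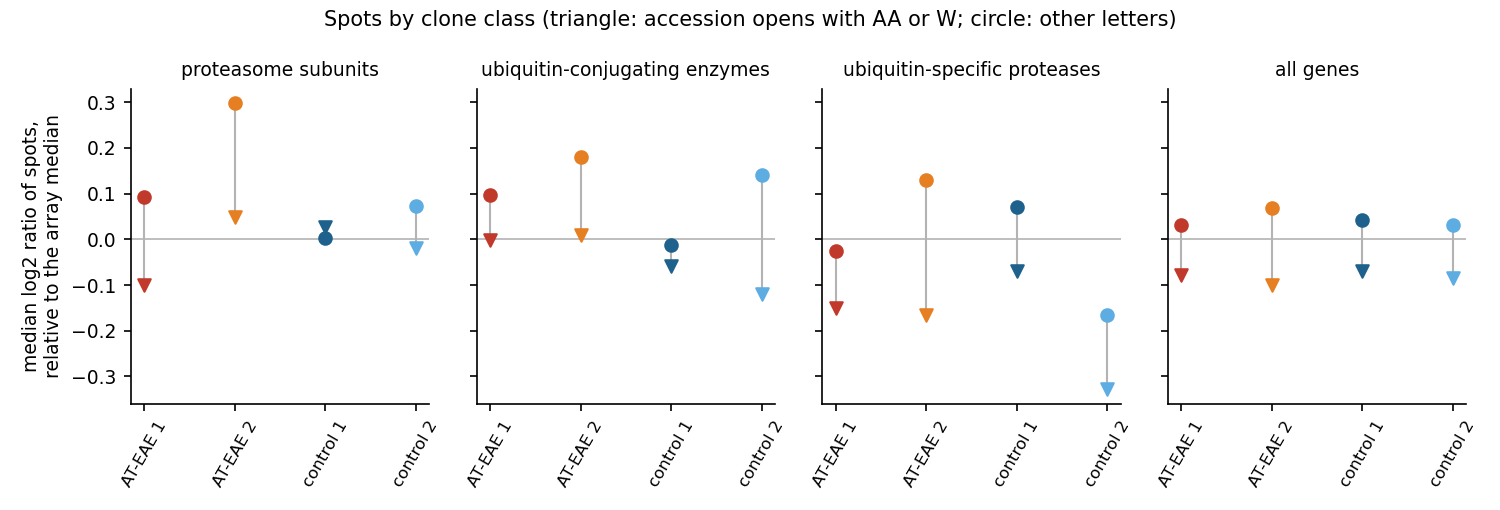
Median log2 ratio of spots relative to the array median (y axis) on each array (x axis), for clones whose accession opens with AA or W (triangles) and for all other clones (circles), by gene group. Over all genes the triangles lie below the circles on each array, at -0.10 against 0.07 on AT-EAE array 2, and in proteasome genes they do so on 3 of 4 arrays.

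Conjugating enzymes stayed close to the array median. Their medians were 0.06 and 0.09 on AT-EAE arrays 1 and 2, and -0.06 and 0.07 on control arrays 1 and 2, with 15 of 22, 12 of 19, 8 of 22 and 13 of 22 genes above. On AT-EAE array 2 the highest were Ube2e1 at 0.82, Ube2a, a partner of the RAD18 ligase in DNA damage tolerance, at 0.56, and Ube2l3, which serves the ligases parkin and HOIP, at 0.53. Ube2e1 was at 0.11 on AT-EAE array 1 and at -0.05 and 0.17 in control, from a single measured spot. Only 1 of the 2 spots of Ube2a had a value on AT-EAE array 2. That spot was at 0.32 on AT-EAE array 1 and at -0.06 and 0.32 in control. Ube2l3 had 4 measured spots on AT-EAE array 2, at 0.88, 0.51, 0.56 and 0.19, and was at 0.08 on AT-EAE array 1 and at 0.07 and -0.05 in control. All 4 of its spots thus lay above the median there and its mean was close to 0 elsewhere.

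Ube2n, which builds lysine 63-linked ubiquitin chains, was at 0.11 and 0.43 in AT-EAE and at -0.07 and -0.24 in control, and its spots on AT-EAE array 2 ran from -0.07 to 0.85. Ube2d3, one of the least selective conjugating enzymes, was at 0.02 and 0.24 in AT-EAE and 0.12 and 0.14 in control, and its 4 spots on AT-EAE array 2 ran from -0.26 to 1.01. Members of the Ube2d family are close in sequence, so cDNA spots of Ube2d2a and Ube2d3 may share signal. Ube2w, which modifies the N terminus of proteins, was at 0.07 and -0.33 in AT-EAE and -0.42 and 0.29 in control. The highest on AT-EAE array 1 was Ube2q2 at 0.41, and the lowest on control array 2 was Ube2h at -0.46, whose 2 spots were at 0.07 and -0.99. Ube2s was at 0.23 and -0.20 in AT-EAE and at -0.04 and 0.19 in control. Ube2k was at 0.18 and -0.31 in AT-EAE and at -0.09 and 0.18 in control. Both thus had AT-EAE array 2 lowest. Ube2e2 was at 0.03 and -0.15 in AT-EAE and at -0.15 and 0.26 in control. Ube2o was at -0.02 and 0.20 in AT-EAE and at -0.11 and -0.17 in control, and Ube2q1 stayed between -0.03 and 0.09.

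The conjugating enzymes that serve degradation at the endoplasmic reticulum were picked after their values were seen. Ube2g1 lay between -0.06 and 0.22 over the 4 arrays, Ube2g2 between -0.01 and 0.08, and Ube2j1 between -0.06 and 0.20. Ube2j2 was at 0.48 on AT-EAE array 2 and between -0.17 and 0.06 elsewhere. Only 1 of its 3 spots had a value on AT-EAE array 2. That spot was at -0.03 on AT-EAE array 1 and at -0.01 and 0.12 on the control arrays. Ube2l6, the conjugating enzyme of the interferon-induced modifier ISG15, was at -0.03 on AT-EAE array 1 and at -0.08 and -0.45 in control.

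Ubiquitin-specific proteases leaned the other way on control array 2. Their median on AT-EAE arrays 1 and 2 was -0.06, with 19 of 30 genes below the array median, and 0.02, with 10 of 22, against 50.0% of all genes. It was 0.04 on control array 1, with 12 of 33 below, and -0.16 on control array 2, with 21 of 32 below. With the genes that had values on all arrays it was -0.08 on control array 2. Lower by at least 0.5 on control array 2 were 5 of the 32, against 4.51% of all genes: Usp12 at -0.83, Usp24 at -0.70, Usp42 at -0.63, Usp54 at -0.58 and Usp53 at -0.54. No proteasome gene but Psmc4 and Psmg2 and no conjugating enzyme lay so low there.

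Usp24, Usp7 and, further on, Usp9x were picked for their 5 spots each after their values were seen. In AT-EAE a single Usp24 spot had a value, at -0.13 on array 1. The 5 spots of Usp24 on control array 2 were at -0.86, -0.71, -0.46, -0.65 and -0.84, a mean of -0.70 ± 0.16 (SD over 5 spots of 1 array). On control array 1 the same 5 spots ran from -0.19 to 0.20, with a mean of 0.02 ± 0.17. The control arrays thus did not overlap at any Usp24 spot. Usp7, a regulator of Mdm2 and p53, was at -0.28 and -0.19 on AT-EAE arrays 1 and 2, at 0.02 on control array 1 and at -0.43 ± 0.33 over 5 spots on control array 2, with 1 spot there above the median at 0.08. Usp48 was at -0.24 and -0.27 on AT-EAE arrays 1 and 2, and at -0.04 and -0.49 on control arrays 1 and 2, and its 3 measured spots on control array 2 were all below the median. Over all members with at least 2 spots on control array 2, 45.3% had all spots on 1 side, against 47.8% of all such genes.

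**Figure D5:**
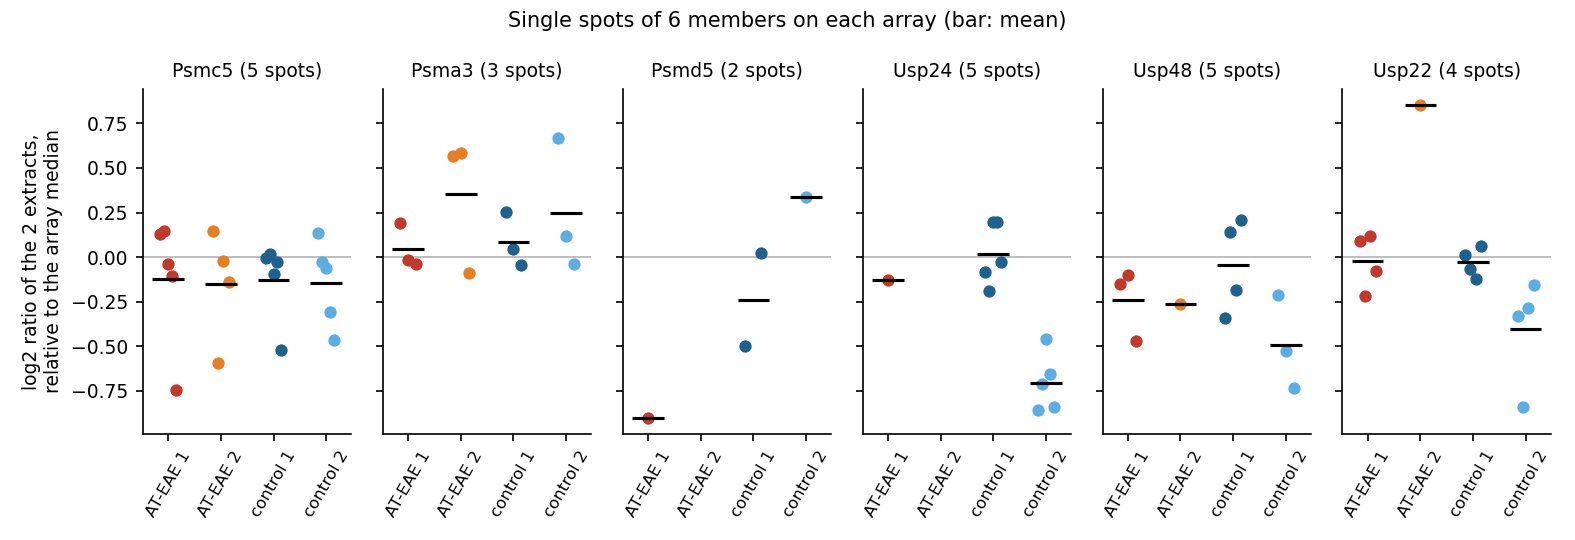
Log2 ratio of single spots relative to the array median (y axis, points) for 6 members on each array (x axis), with the mean as a bar. The 5 Usp24 spots on control array 2 lie between -0.86 and -0.46, while Psmc5 has 4 spots near the median and 1 far below it on AT-EAE array 1, at -0.74.

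On control array 2 ratios were also lower for genes with a longer span on the genome. Over 8055 genes Pearson's r with log2 of the span was -0.22, as a description across genes of 1 array, against -0.04, 0.03 and 0.02 on AT-EAE array 1, AT-EAE array 2 and control array 1. Ubiquitin-specific protease genes had a median span of 57.2 kb, conjugating enzymes 36.2 kb and proteasome genes 12.4 kb, against 23.5 kb for all genes. The part of span in the low ratios of the Usp genes was not tested.

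Single members far from the median were few. At least 2-fold from the array median was 1 member of 93 on AT-EAE array 1, and 0 of 73, 0 of 98 and 0 of 96 on AT-EAE array 2, control array 1 and control array 2, against 0.378%, 1.03%, 0.125% and 0.403% of all genes. The 1 member was Usp54 at -1.01, and the next nearest on that array was Psmd5 at -0.90. Usp54 has a single spot, at -1.01 and 0.24 on AT-EAE arrays 1 and 2 and at -0.35 and -0.58 on control arrays 1 and 2, so that AT-EAE array 2 alone was above the median. Higher by at least 0.5 on AT-EAE array 2 were 12 of 73 members, against 7.75% of all genes, and 1 was lower (Usp21 at -0.59), against 7.00%. The 12 were 5 proteasome genes (Psma6, Psmb2, Psmb11, Psmd9 and Psmd14), the conjugating enzymes Ube2a, Ube2e1 and Ube2l3, and Usp2, Usp5, Usp22 and Usp53. On the other arrays 0, 0 and 1 members were higher by that much, against 0.581%, 0.771% and 1.28%, and 2, 1 and 7 were lower, against 2.91%, 2.02% and 4.51%, in the order AT-EAE array 1, control array 1 and control array 2.

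Usp22, the deubiquitinase of the SAGA coactivator, was at -0.02 and 0.86 in AT-EAE and at -0.03 and -0.40 in control. Only 1 of its 4 spots had a value on AT-EAE array 2, and that spot was at 0.12 on AT-EAE array 1 and at -0.12 and -0.28 on the control arrays. Usp53 was at -0.10 and 0.72 in AT-EAE and at -0.36 and -0.54 in control, from 1 spot, with AT-EAE array 2 alone above the median. Usp9x, which has 5 spots, was at 0.38 on AT-EAE array 2 and between -0.20 and 0.11 elsewhere, and its spots on AT-EAE array 2 ran from -0.44 to 1.19. Usp5, which takes apart free ubiquitin chains, was at 0.07 and 0.53 in AT-EAE and at 0.25 and 0.15 in control. Usp10 was at -0.46 and 0.16 in AT-EAE and at -0.27 and -0.07 in control, and its 2 spots on AT-EAE array 1 were at -0.89 and -0.03. Usp27x was at 0.16 and -0.18 in AT-EAE and at 0.32 and 0.31 in control, and Usp28 at 0.24 and -0.16 in AT-EAE and at 0.15 and 0.01 in control. For both, AT-EAE array 2 alone was below the median.

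Across all 5429 genes with values on every array, limma called 0 members for a ratio that differed between AT-EAE and control arrays after Benjamini-Hochberg adjustment at 0.05, against 0.0184% of all genes, which is 1 gene. At an unadjusted p under 0.05 there were 2 of 73 members, against 3.46% of all genes. They were Usp53, with an AT-EAE minus control difference of 0.76 (SE 0.26, limma adjusted p = 0.997), and Usp22, with 0.63 (SE 0.28, limma adjusted p = 0.997). Without AT-EAE array 1 both were called, in a fit where the lone AT-EAE array is assumed to vary like the control arrays, although its spread was larger. For a ratio shared by all arrays limma again called 0 members and 1 gene in all (0.0184%), and 9 of 73 members had an unadjusted p under 0.05, against 11.7% of all genes. The lowest was Usp2, at 0.38 and 0.71 in AT-EAE and 0.14 and 0.44 in control, above the median on 4 of 4 arrays, with a mean of 0.41 (SE 0.11, limma adjusted p = 0.226). Leaving out AT-EAE array 1 gave 2 calls for a shared ratio, Usp2 and Ube2e1, and leaving out AT-EAE array 2 gave 1, Usp54.

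The difference between extracts was larger in AT-EAE for most members, much as for all genes. A larger mean absolute ratio on the AT-EAE arrays than on the control arrays was found for 21 of 32 proteasome genes, 11 of 19 conjugating enzymes and 15 of 22 ubiquitin-specific proteases, against 60.6% of all genes. The median absolute ratio of proteasome genes was 0.19 in AT-EAE and 0.11 in control, and of all genes 0.18 and 0.14. For the 20S core it was 0.24 in AT-EAE and 0.10 in control, and for the 5 ATPases 0.14 and 0.12. For ubiquitin-specific proteases it was 0.22 in AT-EAE and 0.17 in control. Without AT-EAE array 2 the median log2 ratio of the absolute ratios turned below 0 for conjugating enzymes, at -0.84, and for ubiquitin-specific proteases, at -0.26, against 0.82 and 0.52 with it.

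The proteasome shift on AT-EAE array 2 was set beside 3 other sets of abundant housekeeping genes. On that array 58 ribosomal protein genes had a median of -0.10, 61 respiratory chain genes 0.01 and 8 genes of the chaperonin CCT -0.12, against 0.29 for the proteasome. With only genes that had at least 2 measured spots there, the proteasome median was 0.091. The 3 other sets were not recomputed in that way. On control array 2 ribosomal protein genes were at 0.29 and respiratory chain genes at 0.31, the proteasome at 0.05 and CCT at -0.01. On AT-EAE array 1 respiratory chain genes and the proteasome were both at 0.09. Above the median there were 43 of 63 respiratory chain genes and 29 of 41 proteasome genes. Ribosomal protein genes were at -0.03 and CCT at -0.04 on that array. These medians were not tested against each other.

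The other genes of the pathway were taken from 9 lists of known components, of which 91 genes were on the arrays. Values were present for 79 and 70 of them on AT-EAE arrays 1 and 2, and for 90 and 84 on control arrays 1 and 2. At least 2-fold from the median was 1, on AT-EAE array 2: the cullin scaffold gene Cul2 at -1.12, against 0.04 on AT-EAE array 1 and -0.07 and -0.45 in control. The signalosome, a relative of the 19S lid that trims NEDD8 from cullins, was at 0.10 and 0.26 on AT-EAE arrays 1 and 2, and at 0.03 and 0.07 on control arrays 1 and 2, with Cops3 highest at 0.66 and Cops2 lowest at -0.29 on AT-EAE array 2. Cops5 was highest on AT-EAE array 1, at 0.23, and Cops7b lowest, at -0.20, while Cops4 was lowest on control array 1, at -0.32. Cops3 was highest on control arrays 1 and 2 as well, at 0.21 and 0.24, and Cops2 lowest on control array 2, at -0.15. Cullins and their partners were at 0.01 and 0.18 in AT-EAE and at -0.02 and -0.10 in control. Their lowest and highest were Cul4b at -0.47 and Skp2 at 0.33 on AT-EAE array 1, Cul2 at -1.12 and Cand1 at 0.45 on AT-EAE array 2, Fbxw11 at -0.21 and Eloc at 0.33 on control array 1, and Skp2 at -0.45 and Rnf7 at 0.49 on control array 2.

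Among ligases, Ubr3 was low on most arrays, at -0.56 and -0.63 in AT-EAE and at -0.07 and -0.60 in control, and Trim2 swung widest, at -0.46 and 0.70 in AT-EAE and at 0.45 and -0.57 in control. Rnf11 was highest on AT-EAE array 1, at 0.23, Birc2 lowest on control array 1, at -0.49, and Stub1 highest on control array 2, at 0.29. The deubiquitinase gene Otub1 was at -0.18 and -0.09 in AT-EAE and at -0.55 and -0.65 in control, from 1 spot. The other lowest deubiquitinases were Josd2 at -0.56 on AT-EAE array 1, Stambp at -0.35 on AT-EAE array 2 and Uchl5 at -0.61 on control array 1. The highest were Otud4 at 0.42 and Brcc3 at 0.50 on AT-EAE arrays 1 and 2, and Otub2 at 0.22 and Uchl3 at 0.26 on control arrays 1 and 2. Vcp, the p97 segregase that pulls tagged proteins from membranes and complexes, was at -0.07 and 0.55 in AT-EAE and at 0.56 and 0.06 in control. Of its partners and the shuttle factors, Nploc4 was lowest on AT-EAE arrays 1 and 2, at -0.15 and -0.28, and on control array 2, at -0.47. Rad23b was highest on AT-EAE array 1, at 0.18, and Ubqln2 was lowest on control array 1, at -0.20, and highest on control array 2, at 0.19. Of the regulators, Nfe2l1, the factor known to raise proteasome genes when the proteasome is impaired, was at 0.14 and -0.25 in AT-EAE and at -0.04 and -0.05 in control. Pomp, a maturation factor of the core, was at 0.03 and -0.12 in AT-EAE and at 0.07 and 0.30 in control. Nfe2l2 was lowest of this list on AT-EAE array 1, at -0.27, and highest on AT-EAE array 2, at 0.14. Txnl1 was lowest on AT-EAE array 2 and control array 1, at -0.25 and -0.39, Sem1 highest on control array 1, at 0.13, and Ecpas lowest on control array 2, at -0.48. Ubiquitin-like modifiers were at -0.18 and -0.19 in AT-EAE and at 0.05 on both control arrays. Sumo2 was lowest on AT-EAE array 1, at -0.26, and highest on control array 1, at 0.35. Sumo3 was highest on AT-EAE arrays 1 and 2, at 0.15 and 0.24, Ufm1 lowest on AT-EAE array 2 and control array 2, at -0.43 and -0.15, Urm1 lowest on control array 1, at -0.26, and Fau highest on control array 2, at 0.23. Of the activating enzyme genes, Uba7 was at -0.18 and -0.36 in AT-EAE and at -0.32 and -0.18 in control, below the median on each array. Sae1 was at 0.04 and 0.39 in AT-EAE and at -0.17 on both control arrays. Uba3 and Uba6 had no value on AT-EAE array 2 and lay between -0.15 and 0.02 on the others.

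Nfe2l1 binds an antioxidant response element, and the core of that element, TGACNNNGC, was looked up in promoters because the 20S genes lay on the same side together. The promoter table of RefSeq (GRCm38.p6), with 250 bases before and 50 after each start, held 36 of the 43 proteasome genes. The motif stood on either strand in 6 of these (16.7%), against 16.9% of the 8109 genes on the arrays with a promoter, 21.1% of conjugating enzymes and 20% of ubiquitin-specific proteases. In the 20S core it stood in 2 of 12. The stretches that hold it before the start are shown for the catalytic subunits Psmb5 and Psmb6 and for Psmd9, the proteasome gene highest on AT-EAE array 2, on the strand of the gene from 5′ to 3′ with the motif in capitals. They are at chr14:54618004-54618072 on the minus strand, chr11:70525318-70525356 on the plus strand and chr5:123228129-123228189 on the plus strand.
Psmb5: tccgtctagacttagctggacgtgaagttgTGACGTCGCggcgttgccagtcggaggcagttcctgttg
Psmb6: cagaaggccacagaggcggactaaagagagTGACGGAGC
Psmd9: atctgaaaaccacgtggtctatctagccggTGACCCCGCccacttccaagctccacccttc
The motif begins 47 bases before the start in Psmb5, 9 in Psmb6 and 31 in Psmd9. A match describes these letters and not a bound site.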

How the data were processed

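The authors deposited a table of 1 value per spot and array, treated here as a log2 ratio of the array's channels; base 2 is an assumption. Per the labels' description, green and red normalized signals were compared within a group. The AT-EAE over control ratios it also mentions are not used here. Not given in the sources used here are the channel on top, the background correction, the spot filter and the software. Of 28704 spots, 15635 and 10788 had a value on AT-EAE arrays 1 and 2, and 21139 and 18565 on control arrays 1 and 2. The platform's table named 1 gene for 18511 spots, several for 937 and none for 9256, and 238 spots belonged to members.

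Gene ratios were means over spots minus the array's median over genes. limma 3.58.1 (R 4.3.3) was fitted to the 5429 genes with values on all arrays, with Benjamini-Hochberg adjustment at 0.05. It tested the AT-EAE minus control difference and the mean of both groups. The fit was checked on simulated data with noise independent between arrays. The simulated shifts were larger than the estimate of any member, so that check does not cover effects of the size seen here. An exact permutation test of 2 arrays against 2 could not go below p = 0.333, and the number of arrays limits the precision. The p-values measure the spread between arrays, which may be partly technical. The rule for members uses symbols only, but it and the lists were proposed with earlier results of these data known. Genes named are, per group and array, the 2 lowest and 2 highest with values on all arrays, members past 2-fold or called by limma, members with values in 1 group only, the lowest and highest of each proteasome role and pathway list, and the genes left out by the rule. All others, among them those past 0.5 and the remaining 20S subunits, were picked after their values were seen. Alternatives changed the spot summary, the gene symbols, the zero, the spot minimum, the genes fitted, the arrays and the clone class. Python 3.11.15 ran pandas 2.3.3, with numpy 2.4.6, scipy 1.17.1 and, for plots, matplotlib 3.10.9.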

Additional observations from a re-analysis of the deposited data

How the results depend on the processing

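Of 203 values recomputed under an alternative, 169 stayed within the spread between arrays of a group or, for counts, within 1.5 times. That spread rests on 2 arrays per group and takes no account of sign, so staying within it is a weak criterion. For the size of the difference between extracts 26 of 27 stayed. Yet without AT-EAE array 2 that size turned below 0 for conjugating enzymes and for ubiquitin-specific proteases. The 203 include values under updated gene symbols. That update changed the symbol of 0 members, so those values could hardly move. With genes of at least 2 spots, the median on AT-EAE array 2 was 0.091 for proteasome genes, 0.14 for conjugating enzymes and 0.10 for ubiquitin-specific proteases, no member was past 2-fold on AT-EAE array 1 (0), and 5 proteasome genes lay above the median on all arrays. Centring within the clone class, an alternative chosen after seeing the data, gave conjugating enzymes 0.042 and 0.17 on AT-EAE arrays 1 and 2, and ubiquitin-specific proteases -0.057 on AT-EAE array 2. With the array mean as zero, conjugating enzymes were at 0.087 on AT-EAE array 1. A threshold of 0.5 in place of 1 counted 2 and 13 members on AT-EAE arrays 1 and 2, and 1 and 8 on control arrays 1 and 2. Over spots, the AT-EAE minus control share with a value was -35.1 percentage points for ubiquitin-specific proteases and -22.9 for all members. Spots of ubiquitin-specific proteases had values for 59.8% and 35.1% on AT-EAE arrays 1 and 2, and for 84.5% and 80.4% on control arrays 1 and 2. Over the spots of all genes the shares were 61.7% and 42.1% in AT-EAE, and 80.9% and 72.9% in control. For the AT-EAE minus control ratio limma called 0 spots (247 at an unadjusted p under 0.05), and 6 genes among those with values on at least 3 arrays. For the shared ratio it called 2 spots, 4 genes with robust eBayes and 36 genes with values on at least 3 arrays. The cause was not tested.

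Leaving out 1 array at a time gave 4 to 78 calls for the difference and 14 to 227 for the shared ratio, the highest in each case without AT-EAE array 1, with 0 to 2 members in each. The lone array left in a group is then assumed to vary like the other group's. The size of the difference between extracts ran from -0.84 to 1.34 (log2, AT-EAE over control) for conjugating enzymes, and the AT-EAE minus control share of them with a value from -12.5 to 0 percentage points. The proteasome count above the median on all remaining arrays ran from 14 to 18. It could not fall below the 14 found on all arrays, because leaving out an array only removes a condition. Fewer arrays make that condition easier to meet for any gene. With the array number as a replicate block limma called 1 gene in each fit and 0 members. Over 5429 genes, the deviations of same-numbered arrays from their group means correlated at -0.287, so the numbers do not pair the arrays. The ratios themselves correlated at 0.15 between the arrays numbered 1 and at -0.001 between those numbered 2. Across numbers, r was 0.33 for AT-EAE array 1 with control array 2, and 0.31 for AT-EAE array 2 with control array 1. Between the arrays of the same group it was lower, at 0.19 in AT-EAE and 0.12 in control. The main fit takes no account of likeness across groups. With crossed numbers limma again called 1 gene in each fit and 0 members. Its share of genes at an unadjusted p under 0.05 was then 6.87% for the difference and 16.5% for the shared ratio. Without a block these shares were 3.46% and 11.7%. Precision is limited by 2 arrays per group, by single spots and by missing values.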
